A study of Homo sapiens with 4 samples.

Results

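A set of 10 genes that encode costimulatory, checkpoint and adhesion ligands of B cells were followed in a lymphoma line and in its interleukin-21 (IL-21) resistant derivative. The genes were CD80, CD86, CD274, PDCD1LG2, ICOSLG, CD48, CD58, ICAM1, ICAM2 and ICAM3, taken by gene symbol. They were represented by 14 of the 31095 array probes. Of these, 12 probes for 9 genes carried a value, and each of the 12 had one on all 4 arrays. The single PDCD1LG2 probe and 1 of the 2 ICOSLG probes were blank on every array. PDCD1LG2 therefore has no value here, and 9 of the 10 genes are among the 13446 genes with a value on all arrays.

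RNA was taken from RC-K8, an established cell line of human diffuse large B-cell lymphoma that undergoes apoptosis with IL-21, and from RC-K8-R, a single derivative line selected with rising IL-21 doses over 10 weeks. The 4 groups were RC-K8 without treatment, RC-K8 after 6 h with IL-21 at 100 ng/mL, RC-K8-R without treatment and RC-K8-R given the same IL-21 treatment. Each group had 1 array and no replicate, so every difference below is a difference between single arrays, no test was possible and no p-value is given. Each array compared sample cDNA in Cy5 with a common human reference RNA in Cy3.

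These ligands sit on antigen-presenting cells and are read by T cells and NK cells. CD80 (B7-1) and CD86 (B7-2) bind CD28, which costimulates the T cell, and CTLA4, which restrains it. CD274 (PD-L1) and PDCD1LG2 (PD-L2) engage the inhibitory receptor PDCD1 (PD-1), and ICOSLG engages ICOS. CD58 (LFA-3) binds CD2 and CD48 binds CD244 (2B4), while ICAM1, ICAM2 and ICAM3 are adhesion ligands of the integrin LFA-1, formed by ITGAL and ITGB2. IL-21 is a T cell cytokine that signals in B cells through JAK kinases and STAT transcription factors, and STAT, IRF and NF-kappaB factors are known regulators of several of these genes.

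The log base of the deposited ratios is not stated and was taken as 2. Levels are centred log2 ratios, that is log2 of sample over reference after subtraction of the array's median over probes with a value on all arrays, so 0 is a probe's median ratio on that array and not absence. The values used hold no signal intensities, so a ratio does not show whether a gene's signal lay above background. B cell markers had median levels between 1.37 and 2.01 on the 4 arrays. Markers of T and NK cells lay between -1.76 and -2.94 and those of epithelial cells between -3.50 and -4.65. Of 13 myeloid and dendritic markers only 4 had a value on all arrays, with medians of 0.28 and 0.27 in RC-K8 and -0.58 in both RC-K8-R arrays. The RC-K8-R arrays had a wider spread of ratios, with SDs over probes of 1.52 and 1.56 against 1.26 and 1.31 for RC-K8. Between-line differences followed the level of the probe. In the untreated lines, the median difference of RC-K8-R minus RC-K8 was -0.66 over 1874 probes with a mean log2 ratio from -9 to -2, 0.01 over 9891 probes from -2 to 0, 0.35 over 2128 probes from 1 to 2, 0.54 over 484 probes from 2 to 4 and 0.70 over 100 probes from 4 to 9. With IL-21 the same medians were -0.64, -0.07, 0.31, 0.72 and 1.02. From 0 to 1 the medians were 0.145 over 8783 probes untreated and 0.084 over 8693 probes with IL-21. In the comparisons of the lines below, the trend bears on the 7 of the 9 ligands with mean levels above 0. CD58 and ICOSLG, at mean levels of -1.23 and -0.32, lie in the range with medians of 0.01 and -0.07.

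The stretches upstream of 4 of these genes are shown because IL-21 acts through STAT factors, and because CD80 and CD58 are the ligands with a 2-fold IL-21 difference in RC-K8. They are the 250 bases before the annotated start in RefSeq (build GRCh38.p14), written 5′ to 3′ in the direction of the gene, with matches to any of 3 motifs in capitals. The motifs, read on both strands, were the STAT site TTCNNNGAA, the IRF site (GAAA, any 2 bases, GAAA) and the NF-kappaB consensus GGGRNWYYCC. In these letters N is any base, R is A or G, W is A or T, and Y is C or T.
CD274 (chr9:5450292-5450541, plus strand): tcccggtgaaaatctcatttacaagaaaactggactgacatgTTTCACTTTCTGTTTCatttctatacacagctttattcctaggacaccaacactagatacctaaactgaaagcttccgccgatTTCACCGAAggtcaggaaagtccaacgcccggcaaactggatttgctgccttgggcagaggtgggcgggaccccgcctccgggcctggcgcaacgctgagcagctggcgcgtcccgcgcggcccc
ICAM1 (chr19:10270870-10271119, plus strand): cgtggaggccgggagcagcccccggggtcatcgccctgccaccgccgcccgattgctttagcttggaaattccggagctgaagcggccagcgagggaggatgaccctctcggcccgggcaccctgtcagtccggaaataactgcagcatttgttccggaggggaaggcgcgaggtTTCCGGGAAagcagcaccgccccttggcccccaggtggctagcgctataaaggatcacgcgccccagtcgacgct
CD80 (chr3:119559615-119559864, minus strand): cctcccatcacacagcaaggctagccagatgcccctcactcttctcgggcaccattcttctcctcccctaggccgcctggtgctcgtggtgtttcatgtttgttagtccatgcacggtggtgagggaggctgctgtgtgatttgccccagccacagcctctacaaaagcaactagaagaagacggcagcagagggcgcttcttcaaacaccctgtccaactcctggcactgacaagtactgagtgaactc
CD58 (chr1:116571027-116571276, minus strand): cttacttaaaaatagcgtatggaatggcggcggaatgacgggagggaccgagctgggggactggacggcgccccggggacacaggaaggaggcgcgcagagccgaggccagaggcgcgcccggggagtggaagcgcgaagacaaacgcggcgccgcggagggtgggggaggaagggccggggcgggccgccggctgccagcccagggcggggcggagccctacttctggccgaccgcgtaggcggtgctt
The CD274 window held a STAT match 125 to 117 bases before the start and 2 overlapping IRF matches, which together span 208 to 193 bases before it. The ICAM1 window held the STAT match TTCCGGGAA, 75 to 67 bases before the start. The windows of CD80 and CD58 held none of these motifs. Of the other ligands, 1 of 2 listed CD86 starts had overlapping NF-kappaB matches between 82 and 72 bases before it, and ICOSLG, CD48 and ICAM3 had no match. Among all 35116 windows of this length, 6.57% held the STAT motif, 3.02% the IRF motif and 5.21% the NF-kappaB consensus. A match describes the letters and is not evidence of binding. Only these exact patterns were searched, so lack of a match, as for NF-kappaB in ICAM1, does not show that a site is absent. No window was listed for PDCD1LG2 or ICAM2.

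**Figure D1:**
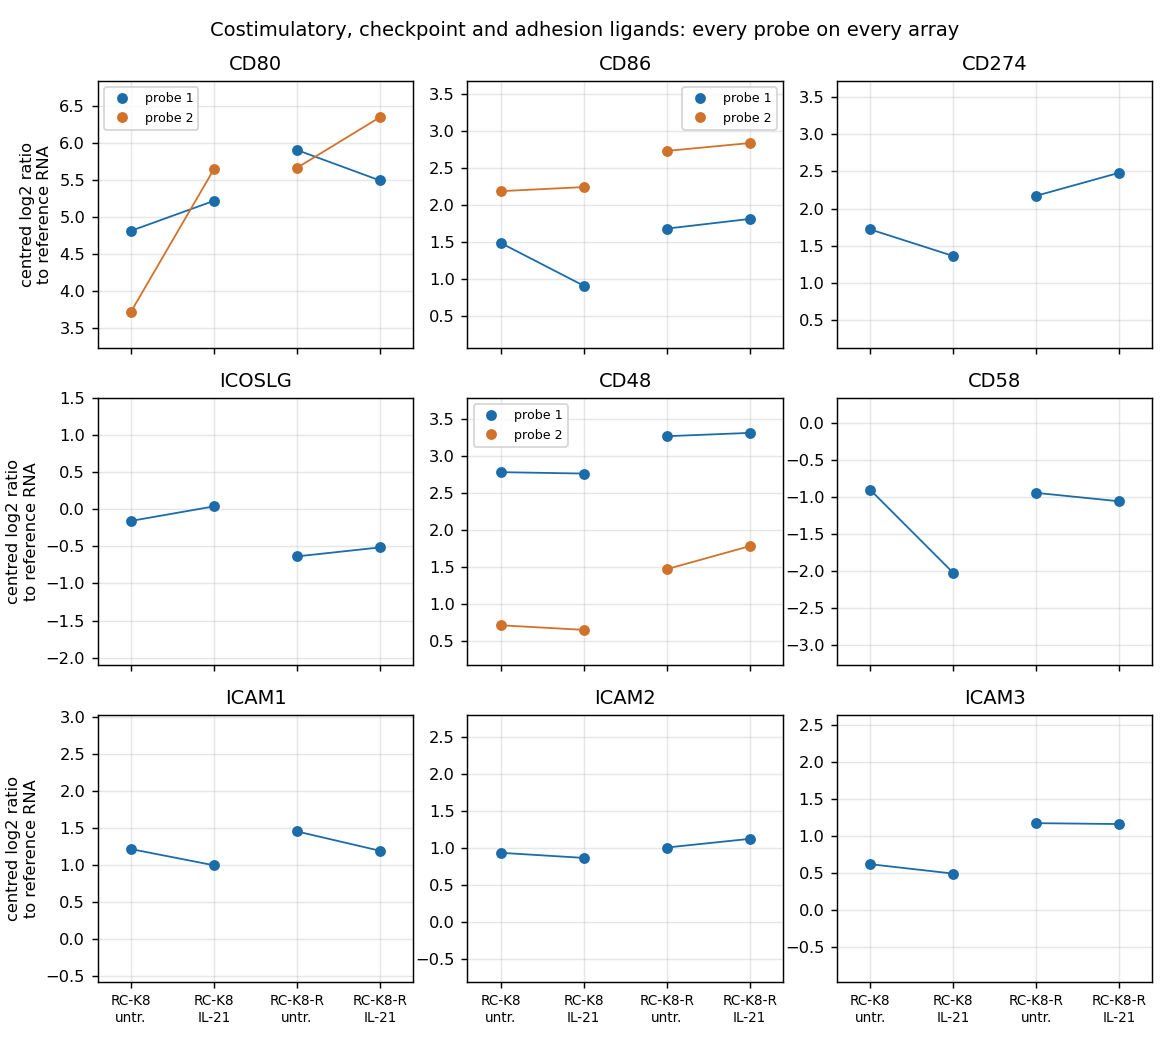
Centred log2 ratio to the reference RNA (y axis) of every probe with a value, on the 4 arrays (x axis), for the 9 measured ligands; each point is 1 probe on 1 array, lines join the arrays of a line, and all panels span the same number of log2 units. CD80 lay between 3.72 and 6.34, CD58 between -2.03 and -0.90, and the 2 CD80 probes differed in opposite directions with IL-21 in RC-K8-R.

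CD80 and CD58 were the ligands that differed 2-fold with IL-21 in RC-K8, in opposite directions. CD80 was 2.24-fold higher on the treated array (log2 1.17, SD between probes 1.07, n = 2 probes), and CD58 was 2.18-fold lower on its single probe (log2 -1.12). The other 7 ligands lay between -0.36 and 0.20. Of the 9 ligands, 1 was thus 2-fold higher and 1 was 2-fold lower, where 1.44% of all genes were 2-fold higher and 1.66% 2-fold lower. In RNA of a whole culture, fewer cells with a transcript and less of it per cell cannot be told apart. The median over the ligands was -0.13, against -0.04 over all genes. B cell markers had a median of -0.55 in the same comparison, with CD79B (-2.54) and BTK (-1.51) 2-fold lower and POU2AF1 (1.28) 2-fold higher of 9 measured. Their part in the CD80 and CD58 differences was not tested.

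The probes of CD80, the B7 ligand induced on activated B cells, gave different sizes. Probe 1 had levels of 4.81 without and 5.22 with IL-21 in RC-K8, and 5.90 without and 5.49 with IL-21 in RC-K8-R. Probe 2 had 3.72, 5.64, 5.66 and 6.34 in that order. Both probes were lowest on the untreated RC-K8 array. They did not agree on the highest, which was untreated RC-K8-R for probe 1 and treated RC-K8-R for probe 2. With IL-21 in RC-K8 the difference was 0.41 on probe 1, which is below 2-fold, and 1.93 on probe 2, so the 2-fold call rests on probe 2. In RC-K8-R the probes had opposite signs, -0.41 and 0.68. Their median of 0.14 (SD between probes 0.77) therefore gives no direction. CD80 ranked 125th highest of 13446 genes in the RC-K8 response.

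CD58, the ligand of CD2 on T and NK cells, had levels of -0.90 without and -2.03 with IL-21 in RC-K8, and -0.94 without and -1.06 with IL-21 in RC-K8-R. Treated RC-K8 was alone at the low end, and the other arrays lay between -1.06 and -0.90. The IL-21 difference ranked 163rd lowest of all genes in RC-K8 (log2 -1.12) and was -0.11 in RC-K8-R. The difference of these responses was 1.01. It lay between 0.94 and 1.45 over the 5 alternative settings that could move a gene with 1 probe, the lowest of which is below 2-fold. With 1 probe and 1 array per group, no error can be given for CD58.

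The B7 family members CD86 and CD274 had small differences with IL-21. CD86 probe 1 had levels of 1.48 and 0.91 in untreated and treated RC-K8, and 1.68 and 1.81 in RC-K8-R. CD86 probe 2 had 2.18 and 2.24, then 2.73 and 2.83. Probe 1 was 0.58 lower with IL-21 in RC-K8 while probe 2 differed by 0.06, and in RC-K8-R both were slightly higher, by 0.13 and 0.11. The gene value in RC-K8 was -0.26 with an SD between probes of 0.45, which is larger than the difference. CD274 had levels of 1.72 and 1.36 in RC-K8 and 2.17 and 2.48 in RC-K8-R, so treatment went with a lower ratio in RC-K8 (-0.36) and a higher one in RC-K8-R (0.31). Both differences were below 1.5-fold. The CD274 value in RC-K8-R was the highest among the ligands in that comparison and ranked 686th of all genes.

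ICOSLG, CD48 and the ICAM genes also had small differences with IL-21. ICOSLG had levels of -0.16 and 0.04 in RC-K8 and -0.63 and -0.51 in RC-K8-R, slightly higher with IL-21 in both lines (0.20 and 0.12). CD48 probe 1 had 2.78 and 2.76 in RC-K8 and 3.26 and 3.31 in RC-K8-R, and probe 2 had 0.71 and 0.65, then 1.47 and 1.78. The CD48 response was -0.04 in RC-K8, and RC-K8-R had 0.18. ICAM1, the inducible LFA-1 ligand, had levels of 1.22 and 1.00 in RC-K8 and 1.45 and 1.19 in RC-K8-R, a lower value with IL-21 in both lines (-0.22 and -0.26). ICAM2 had 0.94 and 0.87, then 1.01 and 1.13, the narrowest range of the 9 ligands (0.26). ICAM3 had 0.62 and 0.49, then 1.17 and 1.16, with responses of -0.13 and -0.01. None of these IL-21 differences exceeded 1.5-fold.

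In RC-K8-R no ligand differed 2-fold with IL-21, where 0.342% of all genes were 2-fold higher and 0.602% 2-fold lower (0.945% together). The ligands lay between -0.26 for ICAM1 and 0.31 for CD274, with a median of 0.12 against 0.00 over all genes. Set against the RC-K8 response, which shares no array with it, 2 of the 9 ligands had a 2-fold difference of responses. CD80 was at -1.03 and CD58 at 1.01, where 2.30% of all genes were 2-fold lower and 2.47% 2-fold higher. For CD80 the probes gave -0.82 and -1.24. CD274 had a difference of responses of 0.67 and CD86 of 0.38 (SD between probes 0.46), and the others lay between -0.08 and 0.22.

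**Figure D2:**
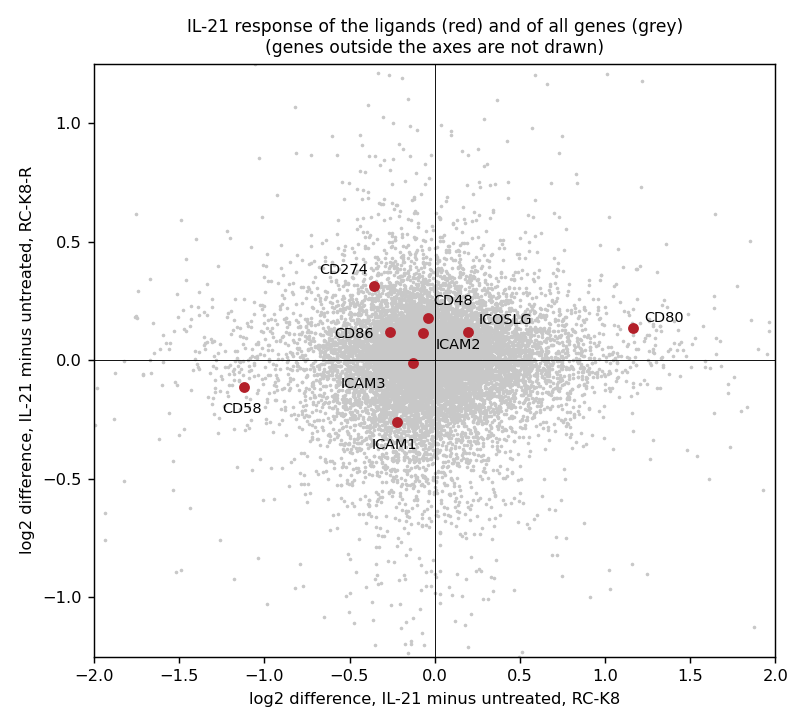
Log2 difference of IL-21 minus untreated in RC-K8 (x axis) against the same in RC-K8-R (y axis), for the 9 measured ligands (red, gene medians over probes) and all genes (grey); each point is 1 gene and the axes leave out genes beyond them. CD80 (1.17) and CD58 (-1.12) stand apart along the x axis, while all 9 ligands lie between -0.26 and 0.31 on the y axis.

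Untreated RC-K8-R had a higher CD80 ratio than untreated RC-K8, by 2.86-fold (log2 1.52, SD between probes 0.60, n = 2 probes). Both probes went this way, at 1.09 and 1.94, and CD80 ranked 78th highest of all genes. It was the ligand at 2-fold higher, and none was 2-fold lower, where 3.35% of all genes were 2-fold higher and 10.2% 2-fold lower. CD48 followed at 0.62 (SD 0.19), then ICAM3 at 0.55, CD274 at 0.45, CD86 at 0.37 (SD 0.25), ICAM1 at 0.24 and ICAM2 at 0.07. CD58 was at -0.04 and ICOSLG at -0.48. The median over the ligands was 0.37, against 0.05 over all genes. That median was -0.030 after quantile normalization and -0.027 after a loess correction for level, so no shift of the ligands as a group is read from it. CD80 was at 0.85 with equal spread per array, 0.65 after quantile normalization and 0.76 after loess, each below 2-fold and in the same direction.

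With IL-21, CD274 was the ligand at 2-fold higher in RC-K8-R, by 2.18-fold (log2 1.12), and none was 2-fold lower, where 7.47% of all genes were 2-fold higher and 10.3% 2-fold lower. CD58 was at 0.97, CD48 at 0.84 (SD 0.41), CD86 at 0.75 (SD 0.22), ICAM3 at 0.67, CD80 at 0.49 (SD 0.30), ICAM2 at 0.26, ICAM1 at 0.20 and ICOSLG at -0.55. The median was 0.67 against -0.03 over all genes. It was 0.24 after quantile normalization and 0.23 after loess, so its size is not settled. The 2-fold call depended on the scaling: CD274 was at 0.85 with equal spread per array, 0.69 after quantile normalization and 0.61 after loess, and in those settings CD58 was the ligand past 2-fold, at 1.17, 1.17 and 1.20. CD80 turned to -0.29, -0.37 and -0.77 in the same order, so its direction between the treated lines is not settled. Both comparisons of the lines share an array with each IL-21 comparison, so they are given side by side and not as separate evidence.

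Taking both arrays of a line, 6 ligands (CD80, CD86, CD274, CD48, ICAM2 and ICAM3) had both RC-K8-R levels above both RC-K8 levels, where 38.0% of all genes did. ICOSLG had both below, where 36.7% of all genes did. CD48, ICAM3 and ICOSLG kept these positions with equal spread per array and after quantile normalization. CD80 and ICAM2 kept theirs in neither, and CD86 and CD274 with equal spread but not after quantile normalization. With equal spread CD58 also had both RC-K8-R levels above. ICOSLG, whose level lies near the array median, moved least, at -0.43 to -0.49 untreated and -0.51 to -0.55 with IL-21 over the 3 other scalings and the centred values. B cell markers were higher in RC-K8-R on the centred values, with medians of 0.64 in the untreated lines and 1.41 with IL-21. Of their 9 measured members, 3 and 6 were 2-fold higher, where 3.35% and 7.47% of all genes were. T and NK cell markers had medians of -1.22 and -1.29, and myeloid and dendritic markers -0.96 and -0.76. Epithelial markers were at -0.76 and -0.80, and fibroblast and endothelial markers at -0.19 and -0.77. None of these marker medians was recomputed under the other scalings. The part of the markers in the ligand differences was not tested.

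**Figure D3:**
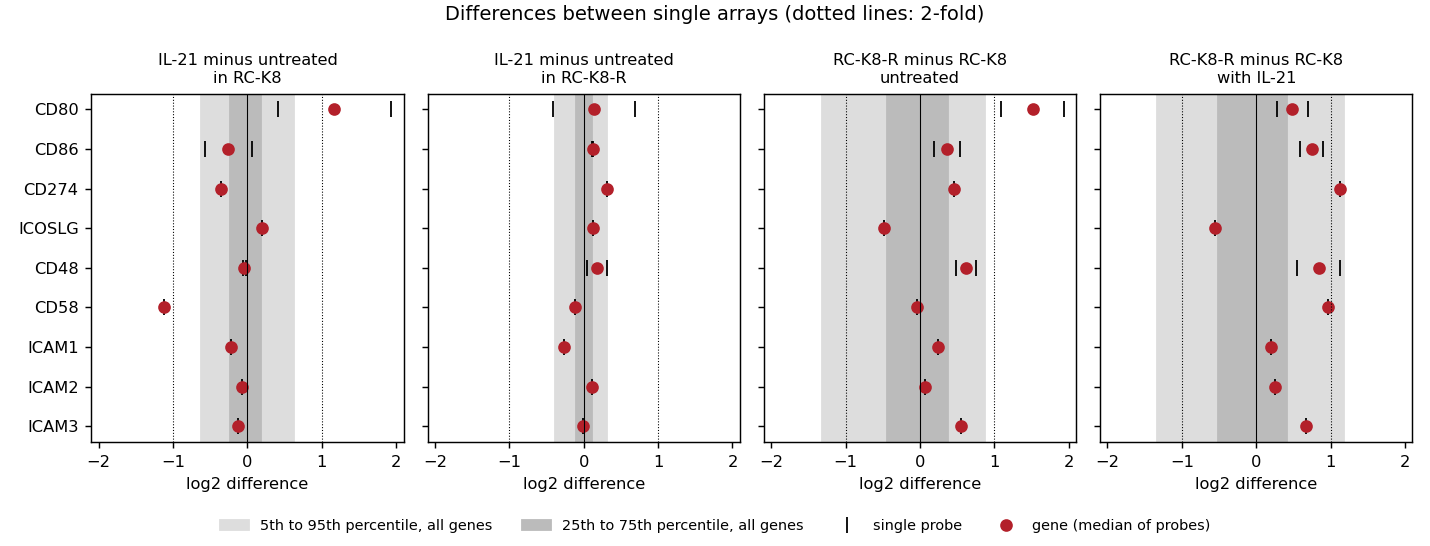
Log2 differences (x axis) of the 9 measured ligands in 4 comparisons; red points are gene values, black ticks single probes, dark and light bands the 25th to 75th and the 5th to 95th percentiles of all genes, and dotted lines 2-fold. CD80 lies outside the light band in RC-K8 with IL-21 and in the untreated lines, and CD58 in RC-K8 with IL-21.

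**Figure D4:**
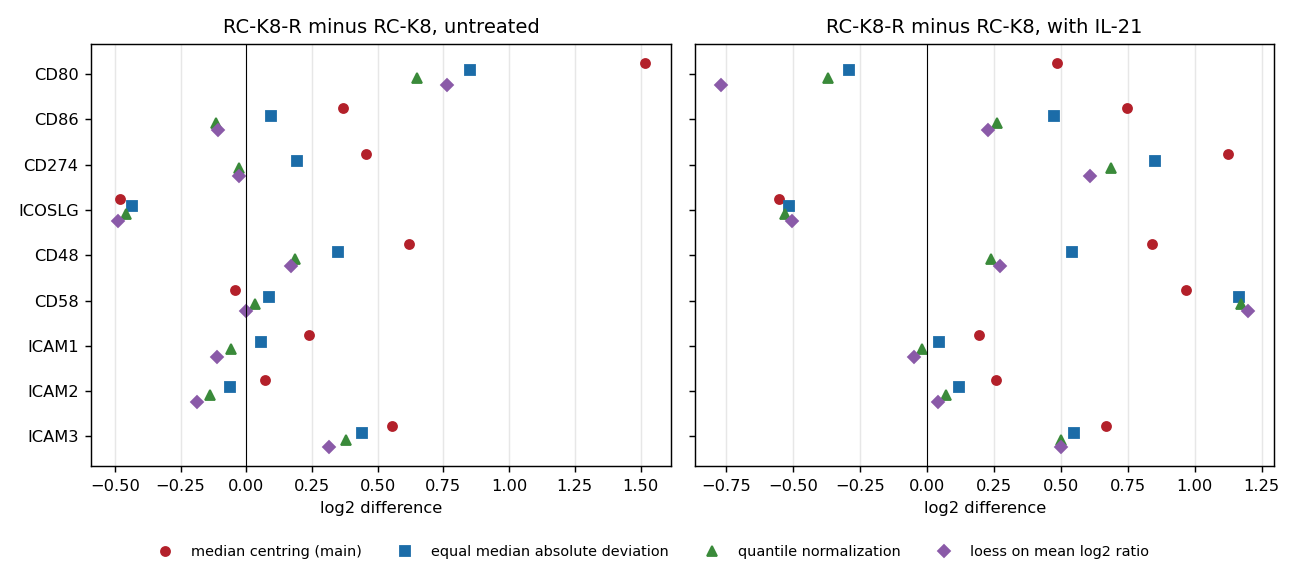
Log2 difference of RC-K8-R minus RC-K8 (x axis) for the 9 measured ligands under 4 scalings of the same arrays, untreated on the left and with IL-21 on the right; each symbol is 1 gene under 1 scaling. CD80 spans 0.65 to 1.52 untreated and -0.77 to 0.49 with IL-21, whereas ICOSLG stays between -0.55 and -0.43 in both panels.

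Several receptors of these ligands are genes of T and NK cells, and 7 of the 12 listed had a value on all arrays. CTLA4, PDCD1, CD2, ITGAM and ITGAD did not. The counts at 2-fold in this list and the next stand beside shares of all genes of 1.44% higher and 1.66% lower for IL-21 in the RC-K8 line, 0.342% and 0.602% for the resistant line, 3.35% and 10.2% between the untreated lines, and 7.47% and 10.3% between the treated lines. In RC-K8 with IL-21, CD28 was 2-fold lower (-1.26) from a level of -3.22, and no receptor was 2-fold higher. No receptor was at 2-fold in RC-K8-R. CD244, the receptor of CD48, was lower in RC-K8-R without (-1.44) and with IL-21 (-1.73), and ICOS, the receptor of ICOSLG, was lower with IL-21 (-1.30). Whether these receptors are expressed above background in either line cannot be read from ratios. The receptor medians were -0.26 and -0.13 for IL-21 in RC-K8 and RC-K8-R, and -0.53 and -0.31 for the untreated and treated lines.

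Other costimulatory and checkpoint ligands had a value for 15 of 22 genes, and none was at 2-fold with IL-21 in RC-K8. In RC-K8-R, NECTIN3 (1.26), a nectin adhesion molecule, and CD200 (1.20), an inhibitory ligand of myeloid cells, were 2-fold higher. Each rests on 1 probe, from low untreated levels of -4.27 and -2.18. NECTIN3 and CD200 were also 2-fold lower in untreated RC-K8-R than in untreated RC-K8 (-2.66 and -1.27), a comparison that shares the untreated RC-K8-R array. CD276 (B7-H3, -1.87, to a level of -5.06) and VSIR (VISTA, -1.31) were the other 2 of 4 at 2-fold lower there, and none was higher. With IL-21, CD40 (1.18) and CD70 (1.00), of the TNF receptor and ligand families, were 2-fold higher in RC-K8-R, and VSIR (-1.70) and NECTIN2 (-1.78, from probes at -2.65 and -0.90) were 2-fold lower. The list medians were -0.07, 0.10, 0.05 and 0.20 in the 4 comparisons.

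SLAM family and other adhesion molecules had a value for 21 of 26 genes, and none was at 2-fold with IL-21 in either line. In untreated RC-K8-R the laminin receptor chain ITGA6 was higher (1.86, from a level of -4.57), and VCAM1 (-1.02), NCAM1 (-1.44) and L1CAM (-1.35) were lower. With IL-21, 4 were 2-fold higher in RC-K8-R: CD59 (1.49), which protects cells from complement, SLAMF1 (1.31), ALCAM (1.26) and ITGA6 (1.23). The 3 lower genes were VCAM1 (-2.15), L1CAM (-1.41) and MADCAM1 (-1.03). Of all genes, 3.35% were 2-fold higher and 10.2% lower between the untreated lines, and 7.47% and 10.3% between the treated lines. For the IL-21 comparisons these shares were 1.44% and 1.66% in RC-K8, and 0.342% and 0.602% in RC-K8-R. SLAMF1 lies beside CD48 in the gene order of chromosome 1, with 2 genes without a value between, and had an IL-21 response of 0.70 in RC-K8-R from probes at 1.21 and 0.19. The list medians were 0.05, -0.05, -0.08 and -0.19.

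Of 26 known regulators of these ligands, 24 had a value, and 6 were 2-fold higher with IL-21 in RC-K8, where 1.44% of all genes were. These were the STAT-responsive factors IRF1 (1.90) and BCL6 (1.59), the AP-1 family factors BATF3 (2.86) and BATF (1.68), STAT3 (1.07) and MYC (3.02, from probes at 3.02, 3.74 and -0.08). None was 2-fold lower, where 1.66% of all genes were. The list was chosen with earlier results of these data known, so the count of 6 is not read as an enrichment. In RC-K8-R no regulator was 2-fold higher and IRF2 (-1.23) was lower from a level of -2.92. Of all genes, 0.342% were 2-fold higher and 0.602% 2-fold lower in that comparison. In untreated RC-K8-R, IRF9 (1.55), JUNB (1.31) and RELA (1.09) were higher than in RC-K8, but the RELA probes were at -1.07 and 3.26, which leaves RELA without a direction. With IL-21, RELB (1.44), IRF4 (1.37) and JUNB (1.35) were higher in RC-K8-R, and IRF1 (-1.02), IRF2 (-2.08), BATF (-1.24), BATF3 (-2.73), MYC (-2.64) and BCL6 (-1.34) were lower. The shares of all genes were 3.35% higher between the untreated lines, and 7.47% higher and 10.3% lower between the treated lines. The list medians were 0.33, 0.03, 0.24 and -0.01.

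The nearest measured gene on either side of a ligand, in RefSeq gene order, differed from it in some cases and not in others. CD80 lies between TIMMDC1 and PLA1A, which were at -0.13 and 0.29 in the RC-K8 response, where CD80 was at 1.17. CD274 lies between PLGRKT and ERMP1 on chromosome 9, which were at -0.35 and -1.15 in treated RC-K8-R against RC-K8, where CD274 was at 1.12. ICAM4, after ICAM1 on chromosome 19, was at -0.81 in the untreated lines against 0.24 for ICAM1. RAVER1, beside ICAM3, was at 0.54 there, close to ICAM3 at 0.55.

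The genes with the 4-array pattern most like a ligand were found by Euclidean distance between log2 ratios after subtraction of each gene's mean, over 4 arrays only. For CD80 they were the noncoding RNA NEAT1 (distance 0.09), GRAMD1B (0.14) and the chemokine receptor CXCR5 (0.14), each from 2 probes. For CD58 they were MARCKS (0.06), WFS1 (0.10) and CBR3 (0.11). For CD274 they were ARHGAP24 (0.02), MYO5A (0.04) and TXNRD2 (0.04). With 4 arrays such closeness is common: 351 genes lay within 0.25 of CD274, 46 of CD58 and 9 of CD80.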

How the data were processed

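The authors deposited 1 log ratio for each probe on each array, taken here to be log2 of the sample's signal over the reference's. Per the labels, sample cDNA carried Cy5 and the reference Cy3, which gives the direction. The log base, centring, scanner, background correction and normalization were not found stated in the labels or the table, and a natural log would enlarge every fold without changing a direction. Deposited array medians over all probes with a value were -0.107, -0.123, -0.106 and -0.111. Probes were named through the platform annotation, which can be old, and RefSeq gene numbers (GRCh38.p14); 25570 of 31095 probes had 1 symbol, 28 several and 5497 were not listed.

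Arrays were centred on the median of 23260 probes with a value on all 4 (-0.123, -0.132, -0.129 and -0.132), and each gene's difference is the median of the differences of its probes. The 2-fold threshold is an absolute log2 difference of 1. The SD between probes is the only error and does not cover cultures, and precision is limited by the number of arrays. Python 3.11.15, pandas 2.3.3 and statsmodels 0.14.6 were used, and the calculation was tested on simulated data. All genes named are the 10 ligands, list genes at 2-fold (at most 6 per list and comparison), nearest measured neighbours, and the 3 genes nearest in pattern to each of the 3 ligands with the widest range. Members and lists were chosen with earlier results of these data known. Fibroblast and endothelial markers had medians from -0.98 to -1.75.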

Additional observations from a re-analysis of the deposited data

Results flagged for a closer look

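These 3 results had opposite directions with IL-21 in the 2 lines, each larger than the median SD between probes of all genes (0.16 for RC-K8 and 0.12 for RC-K8-R). The share of all genes that meet this rule was not counted, so the flags are not read as particular to these ligands. The middle 50% of all genes spanned -0.24 to 0.18 in RC-K8 and -0.11 to 0.11 in RC-K8-R. The difference between the lines was not tested, since each flagged result rests on 4 single arrays. CD274 was at -0.36 in RC-K8 and had 0.31 in RC-K8-R, a difference of responses of 0.67. CD86 probe 1 was at -0.58 and 0.13, a difference of 0.71, while CD86 probe 2 was at 0.06 and 0.11. CD80 probe 1 was at 0.41 and -0.41, a difference of -0.82, while CD80 probe 2 was higher with IL-21 in both lines, at 1.93 and 0.68.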

How the results depend on the processing

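No paired analysis was possible because each group had 1 array. For the same reason no array could be left out. Over 8 alternative settings and 45 ligand differences, 120 of 360 values were fixed by construction, because the mean and median of 1 or 2 probes agree and every measured probe had all 4 values. Of the other 240, 200 moved by less than the spread between probes (for the 6 ligands with 1 probe, the median spread of all genes), 40 moved by more and none at 2-fold changed sign. The 240 include values without centring that could hardly move. Between the treated lines they could not move, since both arrays had a subtracted median of -0.132. There were 22 values of the other sign, in 11 differences. A wide spread between probes makes this measure lenient. On the probe of the highest mean ratio, CD80 went from 1.17 to 0.41 in RC-K8 and from 0.14 to -0.41 in RC-K8-R. Both were counted as moving by less than the spread. The counts of ligands at 2-fold were 2 for IL-21 in RC-K8, 0 for IL-21 in RC-K8-R, 1 for the untreated lines, 1 for the treated lines and 2 for the difference of responses. The shares of all genes beside these counts are given above with each comparison. With only the probe of the highest mean ratio per gene, the counts for RC-K8 and for the difference of responses became 1 (CD58), since that CD80 probe was below 2-fold. In that setting 1.58% of all genes were 2-fold higher and 1.84% lower in RC-K8, and 2.80% and 2.58% for the difference of responses. In the untreated lines the count was 0 after quantile normalization, equal median absolute deviation or loess, and the median of 0.37 became -0.030 after quantile normalization and -0.027 after loess. For quantile normalization, equal median absolute deviation and loess, 3.47%, 3.59% and 2.89% of all genes were 2-fold higher there. The shares 2-fold lower were 8.71%, 8.58% and 8.72%. In the treated lines the median of 0.67 became 0.24 after quantile normalization and 0.23 after loess, and the count was 4 if the values are natural logs, where 14.4% of all genes were then 2-fold higher. The difference of responses gave a count of 1 after loess, where 1.99% of all genes were then 2-fold higher and 2.55% lower. At 1.5-fold the counts were 2 untreated and 5 treated, all higher, where 13.6% and 18.0% of all genes were. At 3-fold they were 0 in RC-K8, between the untreated lines, between the treated lines and for the difference of responses. Of all genes, 0.684%, 2.98%, 4.8% and 1.19% were past 3-fold in either direction in those comparisons, in that order. The cause of these shifts was not tested beyond the trend with level.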
